A study of Mus musculus with 77 samples.

Results

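Corticosterone was set directly against aldosterone in parental cells that carry MR580C, a form of the mineralocorticoid receptor (MR, gene Nr3c2). The cells were taken 2 h after either hormone was added. The comparison uses 3 corticosterone libraries and 3 aldosterone libraries, 6 of the 77 samples of the series, and covers the 18787 genes that vary out of 25124 genes in the table. Corticosterone was given at 100 nM and aldosterone at 10 nM, so the hormone and its dose differ together and their parts in any difference cannot be told apart. A further 3 libraries from vehicle-treated cells of the same line served to show the direction in which each gene moved. They also entered the estimate of spread, shared by all groups, behind the standard errors and p-values.

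The cells are mouse adenocarcinoma cells. Parental means that they were not made GR knockout, in contrast to the cells labelled GRKO elsewhere in the series, so all 9 libraries come from cells that kept the gene of the glucocorticoid receptor (GR, gene Nr3c1) and also carry MR580C. The labels do not describe MR580C further, nor do they say whether the line is 1 clone or whether the replicates are separate cultures, so the p-values rest on a library-to-library spread that may be technical only. Before treatment the cells were kept in medium with charcoal-stripped serum, which removes most steroid hormones. The totals of the 9 libraries ran from 45.28 to 58.53 M (mega) reads, with 49.37 to 56.93 M under corticosterone, 45.28 to 54.22 M under aldosterone and 45.75 to 58.53 M under vehicle. All values below are levels on the authors' variance-stabilized log2 scale (vst) or differences between such levels. The lowest level on that scale is 9.16, which a gene without reads takes, so differences of weakly expressed genes come out smaller than their fold changes. Levels are not divided by gene length, so they compare a gene with itself across libraries and not with other genes.

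The labelled adenocarcinoma was checked against marker genes. None of 15 luminal and general epithelial markers lay 1 log2 unit or more above the lowest level, and 10 of them, Epcam and Cdh1 among them, lay within 0.1 of it. Of 12 fibroblast and mesenchymal markers, 7 lay 1 unit or more above it, with Vim at a mean of 17.47 and Col1a2 at 16.53. The others did not: Dcn and Lum lay at the lowest level, and Thy1, Col1a1 and Col3a1 lay 0.11, 0.67 and 0.88 above it. Among 6 mammary basal markers only Krt14 lay 1 unit or more above the lowest level, at a mean of 10.80, or 1.64 above it. Immune, endothelial, adipocyte and colon epithelial markers had no member 1 unit above the lowest level. The summed levels of the mesenchymal list ran from 147.2 to 147.5 under corticosterone, from 147.5 to 148.1 under aldosterone and from 147.5 to 147.8 under vehicle, and 1 of its 12 members was lower with corticosterone than with aldosterone.

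MR and GR are closely related nuclear receptors that reside largely in the cytoplasm, enter the nucleus when a steroid binds them, and act there as transcription factors. Aldosterone is the main mineralocorticoid and acts chiefly through MR. Corticosterone, the main glucocorticoid of rodents, binds both MR and GR. Both receptors recognise the same DNA element, an inverted repeat of AGAACA-like sequences separated by a short spacer, and Sgk1, Tsc22d3 and Per1 are classic early targets of corticosteroids in many tissues.

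The sequences shown here are matches to a loose form of that element in the promoters of genes that differed between the hormones. Whether a receptor binds them, or whether they play a part in the difference, was not tested. Promoters were taken from RefSeq (build GRCm38.p6) as 250 bases before to 50 bases after a gene's start, and searched on both strands for a full motif of GNACA, 3 bases of any kind and TGTNC, which reads the same on both strands, and for the single element AGAACA, which can overlap it. In each of the following stretches the capitals mark the match to the full motif, and the stretches are given in the order of the difference between the hormones, all but the last being higher with corticosterone.
Sgk1: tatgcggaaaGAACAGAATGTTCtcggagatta
Suox: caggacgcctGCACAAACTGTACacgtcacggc
Mt1: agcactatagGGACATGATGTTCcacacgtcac
Gm6093: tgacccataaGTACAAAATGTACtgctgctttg
Map3k6: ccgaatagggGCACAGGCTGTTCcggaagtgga
Fam107a: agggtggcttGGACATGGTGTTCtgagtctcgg
Map7d2: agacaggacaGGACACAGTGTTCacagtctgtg
Pdzd7: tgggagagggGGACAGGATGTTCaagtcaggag
Slc10a6: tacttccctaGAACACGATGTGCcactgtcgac
Mir100hg: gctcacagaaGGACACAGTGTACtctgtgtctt

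The first of these lies on the plus strand at chr10:21993692-21993724, 188 bases before a start of Sgk1, the serum- and glucocorticoid-regulated kinase. The Mt1 match lies at chr8:94178985-94179017, 94 bases before the start of this metallothionein gene. Suox, which encodes sulfite oxidase, has its match at chr10:128673942-128673974 on the minus strand, 46 bases before the start. A whole Sgk1 promoter window, at chr10:21993640-21993939, is shown with all matches in capitals because Sgk1 is the highest ranked of the genes with a match. Sgk1 has 6 listed starts, and this window was picked because it holds the full motif. It holds 1 match to the full motif and 3 to AGAACA, some of which overlap.
Sgk1 promoter: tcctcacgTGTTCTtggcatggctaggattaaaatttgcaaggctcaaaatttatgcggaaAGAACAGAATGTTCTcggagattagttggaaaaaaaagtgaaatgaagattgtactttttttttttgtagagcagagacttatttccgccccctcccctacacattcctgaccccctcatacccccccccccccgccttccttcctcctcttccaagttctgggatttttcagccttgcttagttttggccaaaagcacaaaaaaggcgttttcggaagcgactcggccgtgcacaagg
The promoter of Per1, a repressor of the circadian clock, is shown beside it because Per1 stood furthest above vehicle under corticosterone among the 15 genes with the largest positive differences, yet this window at chr11:69098699-69098998 held neither motif.
Per1 promoter: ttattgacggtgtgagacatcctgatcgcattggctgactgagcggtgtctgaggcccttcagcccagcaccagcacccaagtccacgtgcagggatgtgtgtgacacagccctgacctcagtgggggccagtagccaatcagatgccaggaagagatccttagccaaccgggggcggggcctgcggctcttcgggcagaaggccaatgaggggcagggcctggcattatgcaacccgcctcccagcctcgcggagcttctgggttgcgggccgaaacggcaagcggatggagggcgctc

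Over all tested genes with a promoter in that table, 66 of 13873 (0.476%) held the full motif in at least 1 of their windows. Among genes higher with corticosterone than with aldosterone, 9 of 279 with a promoter in the table (3.23%) held it, and among genes lower with corticosterone 1 of 178 (0.562%). Counted in the same way, 46 of 279 higher genes (16.5%), 25 of 178 lower genes (14.0%) and 2269 of 13873 tested genes (16.4%) held AGAACA. Genes have unequal numbers of listed starts, such as 6 for Sgk1 and 2 for Per1, so their chances of a match differ. These shares describe the letters of the windows and were not tested.

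Between the hormones, 630 of 18787 genes (3.35%) passed an adjusted p of 0.05 (limma, Benjamini-Hochberg over all genes tested). Corticosterone gave the higher level for 372 of them (1.98%) and the lower level for 258 (1.37%). The median difference of the called genes was 0.20 log2 units among the higher genes and -0.18 among the lower ones, while the median over all tested genes was 0.000. The higher side reached further: 49 higher genes differed by 0.5 or more and 11 by 1.0 or more, against 5 and 0 of the lower genes. The 3 corticosterone libraries lay entirely above the 3 aldosterone libraries for 370 of the 372 higher genes and entirely below for all 258 lower genes; of all tested genes 8.97% had the corticosterone libraries entirely above and 8.60% entirely below, 17.6% in all. Protein-coding genes made up 358 of the higher and 251 of the lower genes. The protein-coding share of all tested genes was not counted, so these numbers do not set the called genes apart. Without corticosterone replicate 2 the count was 380, with 250 higher and 130 lower. With each library centred on its own median, 353 genes were higher and 364 lower. The mean level lay at least 1 unit above the lowest level for 301 of the 372 higher genes and 231 of the 258 lower genes. When only the 9350 genes with such a mean level were tested, 360 were higher and 327 lower.

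The threshold passed through small differences. The last higher gene inside it was Cwc22, with a difference of 0.11 and an adjusted p of 0.0498, and the first outside was Krr1, also 0.11, at 0.0502. On the lower side the last inside was Cmip at -0.12 and the first outside AI837181 at -0.15.

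**Figure D1:**
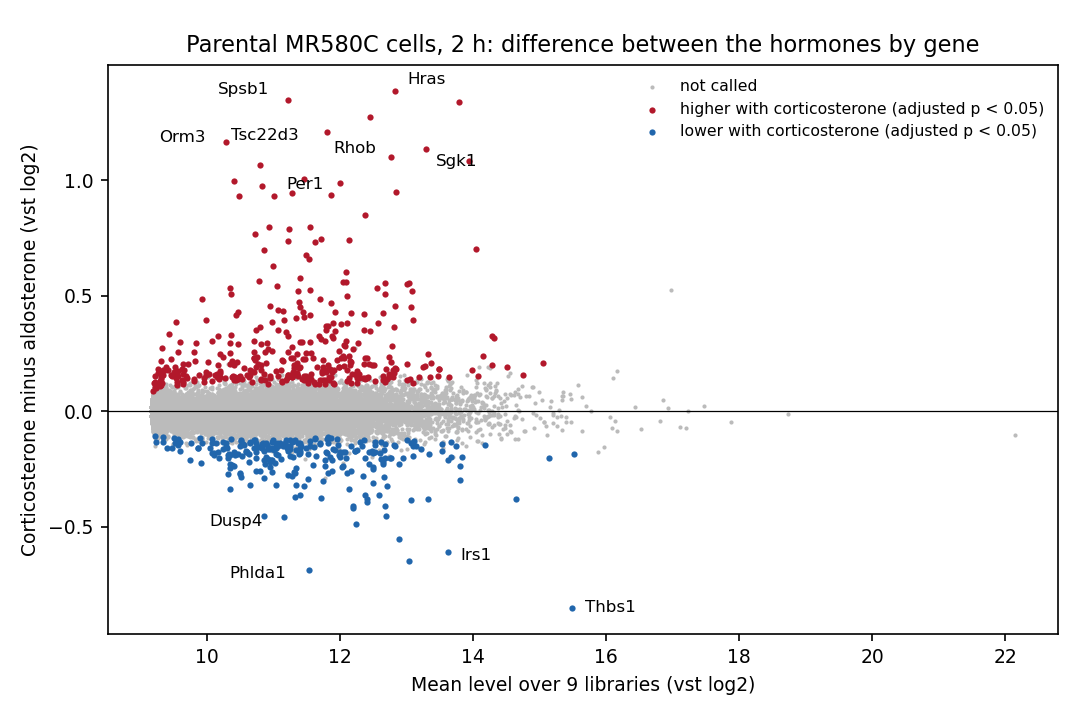
Each point is 1 of the 18787 tested genes in parental MR580C cells, with its mean vst log2 level over 9 libraries on the x axis and the corticosterone minus aldosterone difference (vst log2, means of 3 libraries each) on the y axis. Red points were called higher and blue points lower with corticosterone; positive differences reach 1.39 (Hras) and negative ones -0.85 (Thbs1).

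The vehicle libraries gave the direction. Against vehicle, corticosterone changed 1300 genes (6.92%), 649 raised (3.45%) and 651 lowered (3.47%), and aldosterone 216 (1.15%), 135 raised (0.719%) and 81 lowered (0.431%); the 2 comparisons share the vehicle libraries. Both counts depend on single libraries: without vehicle replicate 3 corticosterone changed 805 genes in place of 1300 and aldosterone 80 in place of 216. Leaving out corticosterone replicate 2 gave 761 with corticosterone and 136 with aldosterone, leaving out corticosterone replicate 3 gave 849 with corticosterone, and leaving out aldosterone replicate 2 gave 119 with aldosterone. Of the 372 genes higher with corticosterone than with aldosterone, 249 (66.9%) were raised by corticosterone and not called for aldosterone, 79 (21.2%) were raised by both, 43 (11.6%) were called for neither hormone, and for 1 gene, Tpst2, only the aldosterone call was made, as lowered. Of the 258 lower genes, 167 (64.7%) were lowered by corticosterone and not called for aldosterone, 30 (11.6%) were lowered by both, 57 (22.1%) were called for neither, and 4 were raised by aldosterone and not called for corticosterone.

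Where both hormones moved a gene, they moved it in the same direction: 114 genes were raised by both, 73 were lowered by both, and 0 were called in opposite directions. Among the 114 raised by both, 79 were higher with corticosterone than with aldosterone, 0 were lower and 35 were not called. The median of these 114 genes stood 0.55 above vehicle under corticosterone and 0.21 above it under aldosterone. Among the 73 lowered by both, 30 were lower with corticosterone, 0 were higher and 43 were not called, with medians of -0.33 under corticosterone and -0.22 under aldosterone. The members of these sets were called from the same vehicle libraries, so these counts describe and do not add support.

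Classic corticosteroid targets were at the top of the list. Per1 had levels of 13.28, 13.23 and 13.21 under corticosterone, 12.17, 12.32 and 12.27 under aldosterone, and 10.51, 10.48 and 10.53 under vehicle. All 3 groups were separate, and the difference between the hormones was 0.99 ± 0.036 (SE, adjusted p 7.8e-14). Tsc22d3, which encodes the glucocorticoid-induced leucine zipper GILZ, had 13.02, 13.12 and 12.99 under corticosterone, 11.80, 11.95 and 11.74 under aldosterone, and 10.57, 10.56 and 10.48 under vehicle. It stood 2.50 above vehicle with corticosterone and 1.29 with aldosterone, and the hormones differed by 1.21 ± 0.046 (SE, adjusted p 1.1e-13). Sgk1 showed the same order of groups, with 14.29, 14.18 and 14.23 under corticosterone, 13.10, 13.04 and 13.15 under aldosterone and 12.49, 12.59 and 12.54 under vehicle. The hormones differed by 1.13 ± 0.038 for Sgk1 (SE, adjusted p 2.4e-14).

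Fkbp5, a co-chaperone of steroid receptors that restrains GR, had 13.04, 13.09 and 13.02 under corticosterone, 12.19, 12.23 and 12.17 under aldosterone and 11.85, 11.90 and 11.91 under vehicle. Its difference between the hormones was 0.85 ± 0.033 (SE, adjusted p 1.5e-13). Klf9, a Krüppel-like transcription factor induced by glucocorticoids in many cell types, had 11.53, 11.56 and 11.52 under corticosterone, 11.06, 11.16 and 11.08 under aldosterone and 10.76, 10.79 and 10.76 under vehicle, a difference of 0.43 ± 0.033 (SE, adjusted p 1.2e-08). Both genes were raised by each hormone, with corticosterone further from vehicle. In the list of corticosteroid-induced genes, 24 of 39 tested members (61.5%) were higher with corticosterone than with aldosterone and 1 (2.56%) was lower. Over all tested genes the shares were 1.98% higher and 1.37% lower, to be read beside every list below. The median difference of the corticosteroid-induced list was 0.27. The list was drawn up with earlier results of these data known, so its count is not independent evidence.

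Other members of that list that were higher with corticosterone included Spsb1, an adaptor of ubiquitin ligases, Ampd3, an AMP deaminase of purine metabolism, Sphk1, which makes the lipid messenger sphingosine 1-phosphate, and Glul, glutamine synthetase. Spsb1 had 12.24, 12.33 and 12.23 under corticosterone, 10.99, 10.89 and 10.89 under aldosterone and 10.43, 10.47 and 10.46 under vehicle, a difference between the hormones of 1.35 ± 0.036 (SE, adjusted p 9.1e-16). Ampd3 differed by 0.94, Sphk1 by 1.07 and Glul by 0.56. The list's 1 lower member was Angptl4, a secreted inhibitor of lipoprotein lipase, named here after its values were seen. Angptl4 had 11.11, 11.16 and 11.23 under corticosterone, 11.29, 11.37 and 11.43 under aldosterone and 11.27, 11.16 and 11.22 under vehicle. Neither hormone's own change against vehicle passed the test for this gene, and its call between the hormones (-0.19, adjusted p 0.0062) was lost without aldosterone replicate 3, where adjusted p was 0.055, and without corticosterone replicates 1 or 2, at 0.065 and 0.067.

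**Figure D2:**
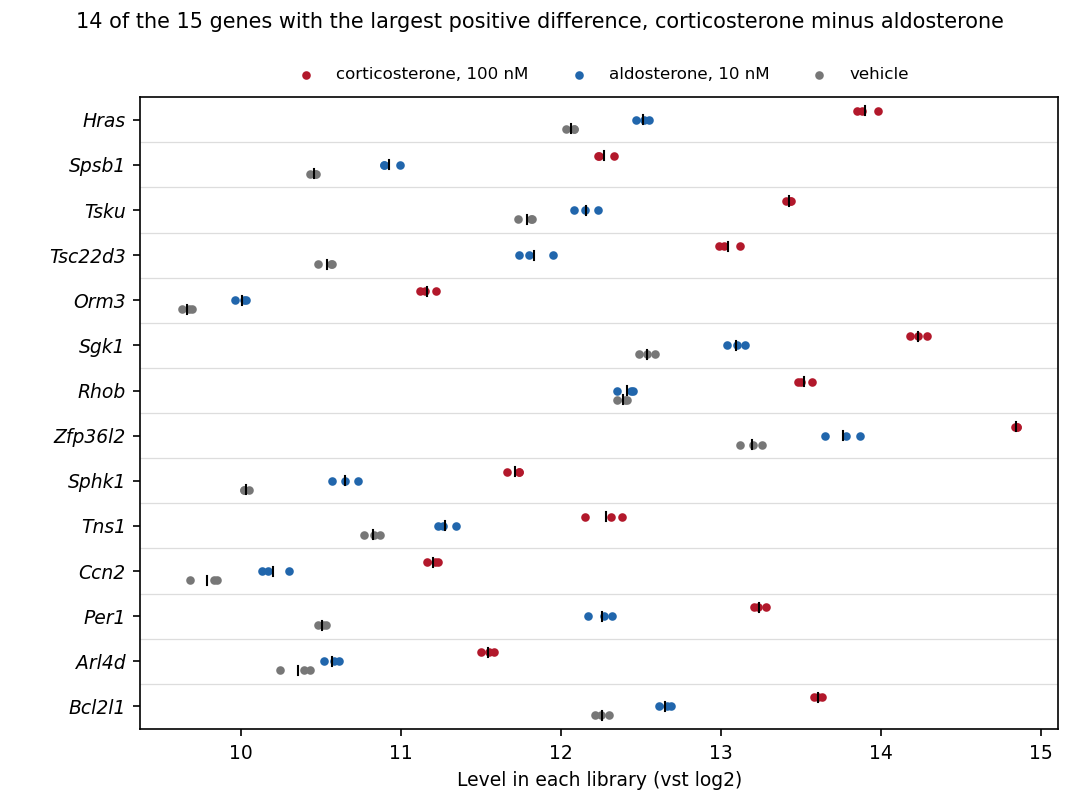
Levels (vst log2, x axis) of 14 of the 15 genes with the largest positive corticosterone minus aldosterone difference, in each of 3 corticosterone (red), 3 aldosterone (blue) and 3 vehicle libraries (grey), with a black bar at each group mean. In every row the red points lie to the right of the blue ones; the blue and grey points of Rhob overlap.

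Hras had the largest positive difference. This gene, at chr7:141189934-141194004 on the minus strand (mm10), encodes a small GTPase upstream of the MAPK cascade, and had 13.98, 13.88 and 13.85 under corticosterone, 12.47, 12.55 and 12.52 under aldosterone and 12.03, 12.08 and 12.08 under vehicle. The difference between the hormones was 1.39 ± 0.037 (SE, adjusted p 9.1e-16). Bcl2l1, which encodes the survival protein Bcl-xL, had 13.61, 13.63 and 13.58 under corticosterone, 12.61, 12.69 and 12.66 under aldosterone and 12.21, 12.25 and 12.30 under vehicle, a difference of 0.95 ± 0.034 (SE, adjusted p 5.5e-14). Zfp36l2, whose protein binds AU-rich elements and speeds the decay of mRNAs, had 14.85, 14.84 and 14.85 under corticosterone, 13.65, 13.78 and 13.87 under aldosterone and 13.20, 13.12 and 13.26 under vehicle.

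Ccn2, the matricellular protein also known as connective tissue growth factor, had 11.23, 11.16 and 11.21 under corticosterone, 10.30, 10.17 and 10.13 under aldosterone and 9.68, 9.85 and 9.83 under vehicle. Tsku, a secreted leucine-rich repeat protein, differed by 1.27, Orm3, an acute-phase glycoprotein of the orosomucoid family, by 1.16, Tns1, a focal adhesion protein, by 1.00, and Arl4d, a small GTPase, by 0.97. Orm3 has close family copies among which reads could be split, so its value is uncertain.

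In parental MR580C cells Rhob was set apart among these 15 genes by its aldosterone levels. Rhob, a small GTPase of endosomes and the actin cytoskeleton, had 13.50, 13.57 and 13.48 under corticosterone, 12.35, 12.44 and 12.45 under aldosterone and 12.35, 12.40 and 12.41 under vehicle. The aldosterone and vehicle libraries overlapped, and aldosterone minus vehicle was 0.028 with a 95% interval of -0.047 to 0.10. The other 14 were all raised by aldosterone too. Their aldosterone minus vehicle differences ran from 0.22 (Arl4d) to 1.75 (Per1), beside corticosterone minus vehicle differences of 1.19 for Arl4d and 2.74 for Per1.

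On the scale of fold changes, the authors' deposited table gave larger values for the same libraries. For Orm3 the authors' deposited table lists a log2 fold change against vehicle of 4.19 with corticosterone and 1.50 with aldosterone, which makes a 6.47-fold higher level with corticosterone. Spsb1 is listed at 2.97 with corticosterone and 0.97 with aldosterone in the authors' deposited table (3.99-fold), and Per1 at 4.00 with corticosterone and 2.82 with aldosterone (2.25-fold).

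Thbs1 had the largest negative difference. It encodes thrombospondin 1, a matricellular protein that inhibits angiogenesis, and lies at chr2:118111876-118127133 on the plus strand (mm10). Its levels were 14.95, 14.97 and 14.87 under corticosterone, 15.68, 15.99 and 15.67 under aldosterone and 15.86, 15.73 and 15.67 under vehicle. The corticosterone libraries lay below all others and the aldosterone libraries overlapped the vehicle libraries, with a difference between the hormones of -0.85 ± 0.067 (SE, adjusted p 1.9e-08). Phlda1, a pleckstrin homology domain protein induced by growth factors, had 11.04, 10.97 and 11.01 under corticosterone, 11.68, 11.71 and 11.70 under aldosterone and 11.89, 11.78 and 11.98 under vehicle. Here aldosterone also lowered the gene (-0.19 against vehicle, adjusted p 0.021), and the hormones differed by -0.69 ± 0.041 (SE, adjusted p 1.7e-10).

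Irs1, the insulin receptor substrate that links insulin and IGF receptors to PI3 kinase, had 13.19, 13.20 and 13.15 under corticosterone, 13.72, 13.90 and 13.74 under aldosterone and 13.91, 13.84 and 13.91 under vehicle. Its difference was -0.61 ± 0.042 (SE, adjusted p 2.1e-09), and aldosterone against vehicle did not pass the test (-0.10, adjusted p 0.39). Its relative Irs2 went the other way, with 12.12, 12.11 and 12.10 under corticosterone, 11.71, 11.76 and 11.79 under aldosterone and 11.50, 11.48 and 11.54 under vehicle. Irs2 was raised by both hormones and was higher with corticosterone by 0.35 ± 0.032 (SE, adjusted p 1.9e-07); it overlaps 9530052E02Rik on the opposite strand. Gas1, a membrane protein of growth-arrested cells, and Ccn4, a matricellular protein of the Ccn2 family, were lower with corticosterone by -0.45 and -0.41, with aldosterone minus vehicle at 0.055 and 0.071, neither past the test.

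**Figure D3:**
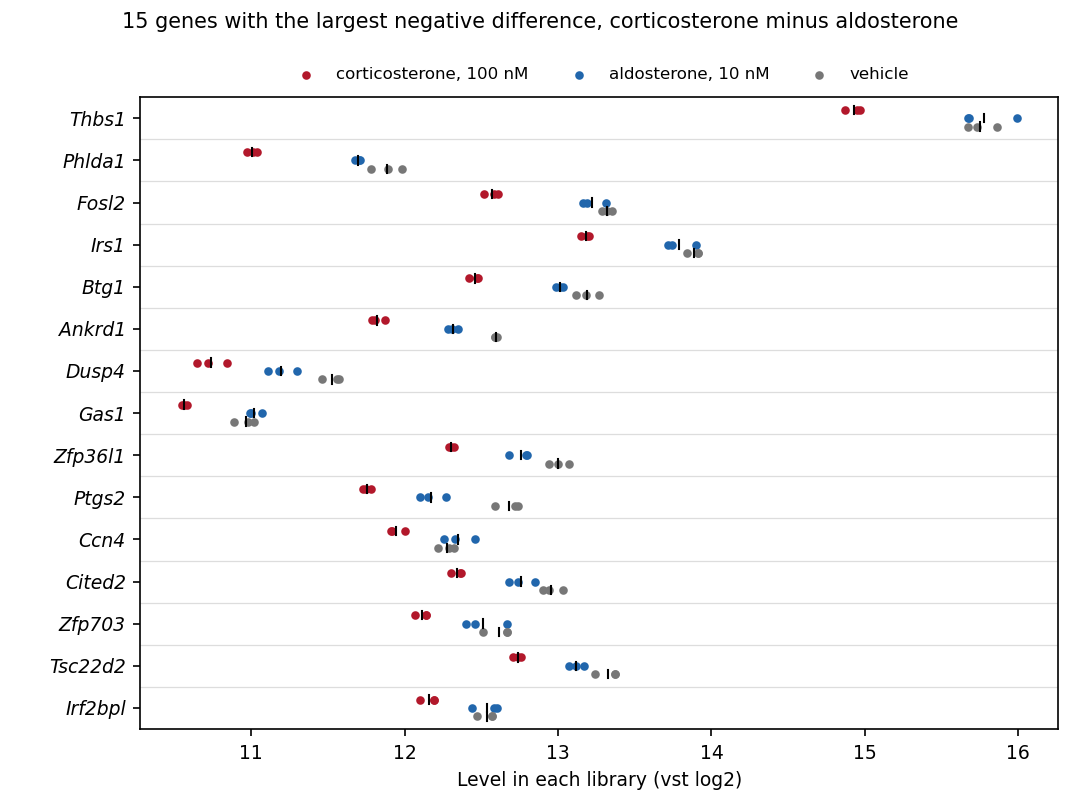
Levels (vst log2, x axis) of the 15 genes with the largest negative corticosterone minus aldosterone difference, in each of 3 corticosterone (red), 3 aldosterone (blue) and 3 vehicle libraries (grey), with a black bar at each group mean. The red points lie to the left of the blue ones in every row, and for Thbs1, Fosl2, Irs1, Gas1, Ccn4, Zfp703 and Irf2bpl the blue and grey points overlap.

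The receptors themselves differed slightly. Nr3c2 had 11.86, 11.84 and 11.84 under corticosterone, 11.65, 11.63 and 11.58 under aldosterone and 11.35, 11.33 and 11.32 under vehicle. The groups were separate, with a difference between the hormones of 0.23 ± 0.031 (SE, adjusted p 4.9e-05), and both hormones raised the gene. Reads of the added receptor and of the cells' own Nr3c2 fall on 1 gene and cannot be told apart in these values. Nr3c1 had 12.97, 12.96 and 12.94 under corticosterone, 13.12, 13.08 and 13.07 under aldosterone and 13.13, 13.21 and 13.17 under vehicle. It was lower with corticosterone by -0.14 (adjusted p 0.015), a call that was lost without corticosterone replicates 2 or 3 or aldosterone replicate 1, at adjusted p 0.08, 0.11 and 0.066. H6pd, which supplies NADPH to the enzyme that regenerates active glucocorticoid, was higher with corticosterone by 0.23. Of the 20 receptors, enzymes and coregulators in that list, 3 were higher and 1 was lower.

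In epithelial sodium and potassium transport, the best known role of MR in kidney and colon, 1 of 19 tested genes (5.26%) was higher with corticosterone and 0 were lower. Scnn1g, Stk39, Kcnj1 and Kcne3 of this list were not tested. Luminal, general and colon epithelial markers lay less than 1 unit above the lowest level, so the count says little about this role. The 1 higher gene was Sgk1, which acts on the epithelial sodium channel, and the list's median difference was -0.0049. The circadian clock list had 3 higher genes (15.8%) and 1 lower gene (5.26%) of 19. Besides Per1, Nfil3, a repressor of D-box genes, had 12.07, 12.01 and 11.98 under corticosterone, 11.34, 11.42 and 11.33 under aldosterone and 11.19, 11.18 and 11.23 under vehicle. Per2 was higher by 0.38 and Nr1d1, the clock repressor REV-ERBα, named after its values were seen, was lower by -0.21. The Nr1d1 locus overlaps Thra on the opposite strand, and its call was lost without corticosterone replicate 2 (adjusted p 0.067).

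Genes of growth factor and stress signalling were spread to both sides. Of 20 tested MAPK phosphatases and feedback genes, 3 (15%) were higher and 7 (35.0%) lower with corticosterone, with a list median of -0.077. The shares of all tested genes were 1.98% and 1.37%. Dusp1, the phosphatase that switches off p38 and JNK, had 11.28, 11.27 and 11.23 under corticosterone, 10.45, 10.50 and 10.54 under aldosterone and 10.35, 10.40 and 10.45 under vehicle. Errfi1, an inhibitor of the EGF receptor, had 11.72, 11.66 and 11.67 under corticosterone, 11.04, 10.85 and 10.95 under aldosterone and 11.02, 11.02 and 11.00 under vehicle. Neither gene was called for aldosterone against vehicle, and both were higher with corticosterone, by 0.77 and 0.74. The lower members were Dusp4, an ERK phosphatase whose difference was -0.46, Phlda1, Dusp8, Dusp10, Spry1 and the EGF receptor ligands Ereg and Hbegf, at -0.22 and -0.19.

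No immediate-early or AP-1 gene was higher with corticosterone, and 4 of 16 (25.0%) were lower, beside 1.37% of all tested genes. Fosl2, an AP-1 subunit, had 12.61, 12.58 and 12.52 under corticosterone, 13.16, 13.31 and 13.19 under aldosterone and 13.35, 13.29 and 13.32 under vehicle, with a difference of -0.65 ± 0.038 (SE, adjusted p 1.7e-10). The other 3 were Ier3 (-0.23), Fosl1 (-0.24) and Jun (-0.17). The Jun call was lost without corticosterone replicate 2 (adjusted p 0.087). The Fosl1 call was lost in 6 of the 9 fits that left out 1 library, with a highest adjusted p of 0.28. Among NF-kB and inflammatory genes, 1 of 26 (3.85%) was higher, beside 1.98% of all tested genes, and 4 (15.4%) were lower. The higher one was Nfkbia, the inhibitor that holds NF-kB in the cytoplasm, with 11.33, 11.31 and 11.32 under corticosterone, 10.61, 10.63 and 10.64 under aldosterone and 10.60, 10.61 and 10.58 under vehicle. Aldosterone and vehicle overlapped for Nfkbia, and the hormones differed by 0.70 ± 0.031 (SE, adjusted p 1.3e-12).

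The lower inflammatory genes were lowered by aldosterone too in 2 cases. Ptgs2, the inducible cyclooxygenase, had 11.78, 11.75 and 11.73 under corticosterone, 12.15, 12.10 and 12.27 under aldosterone and 12.59, 12.72 and 12.74 under vehicle. Csf1, a growth factor of macrophages, had 14.32, 14.22 and 14.25 under corticosterone, 14.68, 14.56 and 14.69 under aldosterone and 14.99, 15 and 15.09 under vehicle. In both genes the aldosterone libraries lay between the others without overlap. The chemokines Cxcl5 and Ccl2 were lower with corticosterone by -0.13 and -0.14.

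**Figure D4:**
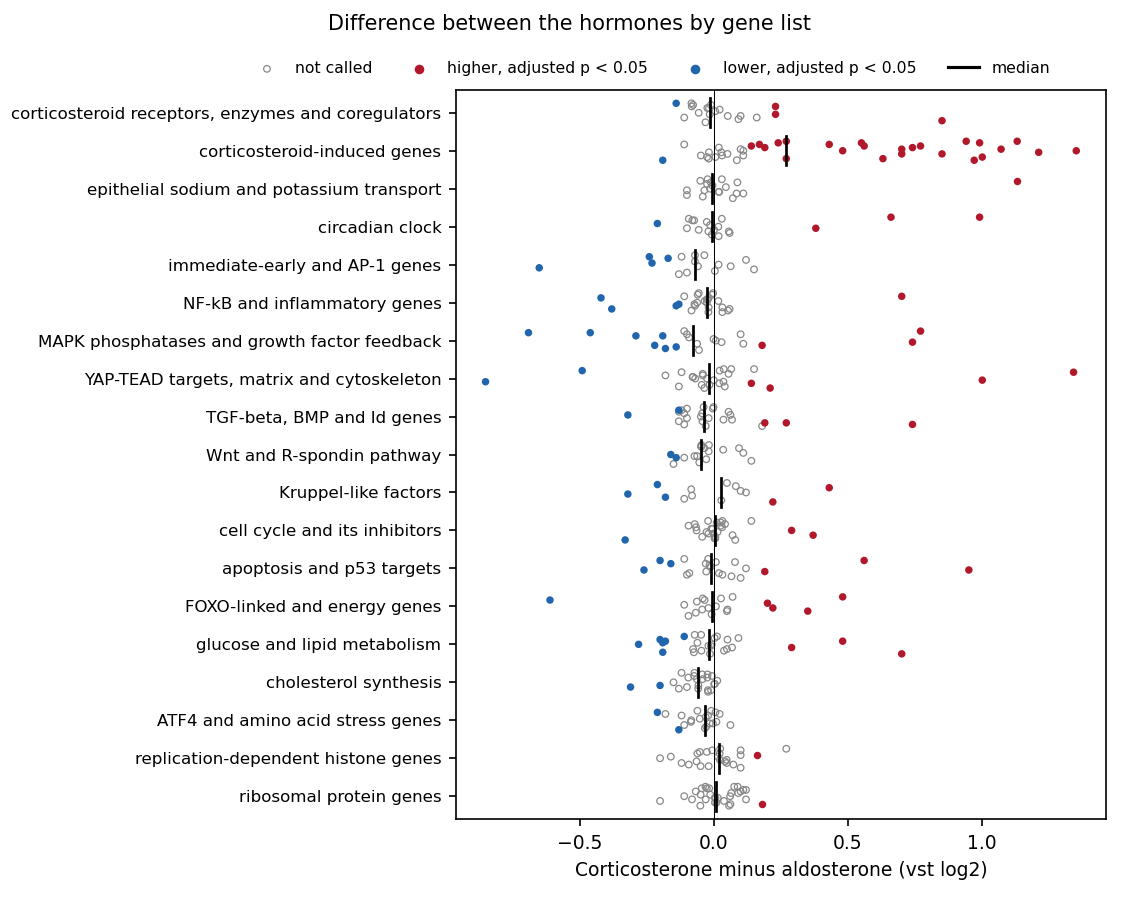
Corticosterone minus aldosterone differences (vst log2, x axis) of every tested member of 19 gene lists, 1 list per row, with a black bar at the list's median. Filled points passed an adjusted p of 0.05 (red higher, blue lower with corticosterone) and open points did not; the corticosteroid-induced genes have a median of 0.27, and the medians of the other lists lie between -0.077 and 0.028.

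Targets of YAP and TEAD, matrix and cytoskeletal genes were called in both directions. Of 27 tested, 4 (14.8%) were higher and 2 (7.41%) lower, beside 1.98% and 1.37% of all tested genes. The higher ones included Ccn2, the basement membrane collagen Col4a1 (0.21) and the fibronectin receptor subunit Itga5 (0.14). Thbs1 and Ankrd1, a nuclear ankyrin repeat protein, were lower, Ankrd1 by -0.49. In the list of TGF-beta, BMP and Id genes, 3 of 25 were higher and 2 were lower. Id1, an inhibitor of basic helix-loop-helix factors, had 12.26, 12.11 and 12.19 under corticosterone, 11.54, 11.26 and 11.53 under aldosterone and 11.35, 11.55 and 11.58 under vehicle. The aldosterone and vehicle libraries of Id1 overlapped, and the difference between the hormones was 0.74 ± 0.063 (SE, adjusted p 6.4e-08). Tgfbr3, a co-receptor for TGF-beta, was higher by 0.27, and Tgif1, a repressor of SMAD signalling, was lower by -0.32.

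Among Wnt and R-spondin genes 0 of 18 were higher and 2 (11.1%) were lower, beside 1.98% and 1.37% of all tested genes. The lower ones were the receptor Fzd7 (-0.16) and the ubiquitin ligase Rnf43 (-0.14), which removes Wnt receptors. The Rnf43 call was lost without any 1 of the 3 corticosterone libraries or without aldosterone replicates 2 or 3, at adjusted p values between 0.061 and 0.12. Krüppel-like factors had 2 higher genes (15.4%), Klf9 and Klf15, and 3 lower ones (23.1%), Klf3, Klf4 and Klf7, of 13. Klf15 lay close to the lowest level, at 9.64, 9.61 and 9.66 under corticosterone, 9.37, 9.45 and 9.42 under aldosterone and 9.30, 9.34 and 9.38 under vehicle.

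Cell cycle genes were mostly not called, with 2 of 27 (7.41%) higher and 1 (3.70%) lower, beside 1.98% and 1.37% of all tested genes. Cdkn1a, the p21 inhibitor of cyclin-dependent kinases, had 13.08, 13.09 and 13.11 under corticosterone, 12.70, 12.69 and 12.79 under aldosterone and 12.67, 12.52 and 12.65 under vehicle, and was higher by 0.37 ± 0.039 (SE, adjusted p 1.6e-06). The polo-like kinases split, with Plk3 higher by 0.29 and Plk2 lower by -0.33. Plk3 overlaps Tctex1d4 on the opposite strand. Of 21 apoptosis and p53 genes, 3 (14.3%) were higher and 3 (14.3%) lower. The higher ones included 2 survival genes, Bcl2l1 and Mcl1 (0.19), and the lower ones included 2 death genes, Bcl2l11 (-0.20) and Bbc3 (-0.16). The growth arrest genes Gadd45g and Gadd45a were called in opposite directions, at 0.56 and -0.26, and Gadd45a overlaps a transcript on the opposite strand.

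Metabolic genes were also called on both sides. Of 19 FOXO-linked and energy genes, 4 (21.1%) were higher (Pdk4, Irs2, Foxo3 and Trib1) and Irs1 (5.26%) was lower. Pdk4, which inhibits pyruvate dehydrogenase and spares glucose, had 10.32, 10.22 and 10.19 under corticosterone, 9.82, 9.72 and 9.74 under aldosterone and 9.79, 9.78 and 9.73 under vehicle, so the aldosterone and vehicle libraries overlapped. Of 26 genes of glucose and lipid metabolism, 3 (11.5%) were higher and 6 (23.1%) were lower, beside 1.98% and 1.37% of all tested genes. Plin4, a lipid droplet coat protein, had 14.55, 14.59 and 14.56 under corticosterone, 13.83, 13.86 and 13.90 under aldosterone and 13.75, 13.70 and 13.71 under vehicle; it overlaps Hdgfl2 on the opposite strand. The lower ones included genes of fatty acid synthesis and desaturation, Fasn (-0.20) and Scd1 (-0.18), and their regulator Srebf1 (-0.19), 3 calls that depended on single libraries, together with Lpin1 (-0.28) and Angptl4.

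Of 23 genes of cholesterol synthesis and uptake, 0 were higher and 2 (8.70%) were lower, Insig1 among them, beside 1.98% and 1.37% of all tested genes. Insig1, which retains the sterol sensor in the endoplasmic reticulum, had 12.33, 12.32 and 12.28 under corticosterone, 12.62, 12.65 and 12.59 under aldosterone and 12.52, 12.58 and 12.49 under vehicle. Corticosterone lowered it (-0.22 against vehicle, adjusted p 0.0001), and aldosterone against vehicle was 0.093 (adjusted p 0.26). The list of ATF4 and amino acid stress genes had 2 lower genes of 20 (10.0%), Ddit3 and Slc38a2, at -0.21 and -0.13. Ddit3 overlaps Mars on the opposite strand. Without corticosterone replicate 2 the adjusted p of Ddit3 was 0.054.

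Histone and ribosomal protein genes were near the background of 1.98% higher over all tested genes. Of 24 histone genes 1 (4.17%) was called higher (Hist2h2ac, 0.16, adjusted p 0.031). Of 30 ribosomal protein genes 1 (3.33%) was called higher (Rps9, 0.18, adjusted p 0.04). Both genes have near-identical copies, so their values are uncertain. Without corticosterone replicate 2 the adjusted p was 0.16 for Hist2h2ac and 0.33 for Rps9.

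Over the 19 lists, 88 genes were called, and 62 of them stayed past the threshold when any 1 of the 9 libraries was left out. The calls of the other 26 were lost without at least 1 library, in 25 of them without corticosterone replicate 2 among others, with the highest adjusted p of a gene between 0.051 and 0.33 and the sign kept throughout. They include Angptl4, Bbc3, Ccl2, Cxcl5, Ddit3, Dusp7, Dusp10, Fasn, Fosl1, Gadd45b, Hist2h2ac, Itga5, Jun, Klf7, Mcl1, Nr1d1, Nr3c1, Rnf43, Rps9, Scd1, Skil, Slc38a2, Spry1, Srebf1 and Tgfb3. Of the genes named, all but Dusp7 are in the group of 25.

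In 5 genes the hormones were closest although both moved the gene by at least 0.3 from vehicle; 40 genes met those conditions. Cp, the copper-carrying ferroxidase ceruloplasmin, had 11.55, 11.60 and 11.44 under corticosterone, 11.38, 11.80 and 11.33 under aldosterone and 10.95, 10.80 and 10.77 under vehicle. The hormone groups overlapped, and the difference of 0.03 had a 95% interval of -0.14 to 0.20. Ddit4, an inhibitor of mTOR signalling, was raised by 0.56 with corticosterone and by 0.51 with aldosterone, a difference of 0.051 with an interval of -0.06 to 0.16. Col6a3, a collagen VI chain, Klf5 and the neuronal navigator Nav2 were lowered by both hormones, with intervals of the difference of -0.10 to 0.08 for Col6a3, -0.17 to 0.01 for Klf5 and -0.20 to 0.011 for Nav2. These genes were chosen for their small differences, so the intervals give what the libraries leave possible and do not show equality.

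For 5 called genes only the aldosterone call against vehicle was made, and they are named after their values were seen. The adjusted p of that call (limma) was 0.0083 for Scd1, 0.012 for Aldh3a1, 0.035 for Socs3, 0.039 for Ndrg1 and 0.04 for Tpst2. Most of these lie close to the threshold, and the leave-outs given below cover only the calls between the hormones. Scd1, the stearoyl-CoA desaturase, had 15.47, 15.52 and 15.45 under corticosterone, 15.60, 15.77 and 15.62 under aldosterone and 15.48, 15.35 and 15.38 under vehicle. Socs3, an inhibitor of cytokine signalling, had 10.96, 10.93 and 10.93 under corticosterone, 11.14, 11.06 and 11.12 under aldosterone and 10.92, 10.96 and 11.00 under vehicle. In both genes the aldosterone libraries lay above all others. Ndrg1, a stress-induced growth regulator, had 12.59, 12.64 and 12.61 under corticosterone, 12.70, 12.97 and 12.78 under aldosterone and 12.68, 12.57 and 12.56 under vehicle. Aldh3a1, an aldehyde dehydrogenase, stood 0.19 above vehicle with aldosterone and 0.04 with corticosterone. Tpst2, a tyrosylprotein sulfotransferase, had the opposite pattern, with 11.95, 11.87 and 11.99 under corticosterone, 11.78, 11.67 and 11.84 under aldosterone and 11.91, 11.91 and 12.01 under vehicle. All 5 differences between the hormones were small, from -0.20 to 0.17. The calls of Ndrg1, Aldh3a1 and Scd1 were lost without any 1 of the 3 corticosterone libraries, and those of all but Socs3 without aldosterone replicate 2.

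The series holds the same hormones, doses and time in other libraries, of which those of parental cells that carry MR (labelled MR-1G12) and of cells labelled GRKO that carry MR (labelled MR-2B12) are used here. MR580C cells labelled GRKO were also treated with both hormones, but they are not used here, since the table of corticosterone in those cells lists only part of the genes. Their values are the authors' deposited log2 fold changes against vehicle, and each line's corticosterone and aldosterone values share that line's vehicle libraries. In parental MR cells, where the table has 2 libraries for each hormone, the corticosterone fold change in the authors' deposited table was above the aldosterone fold change for 355 of 371 genes called higher in MR580C cells (95.7%), beside 52.7% of all tested genes with a value. For the genes called lower it was above in 17 of 256 (6.64%). The median of the higher genes was 0.46 with corticosterone and 0.20 with aldosterone in the authors' deposited table of parental MR cells. Rhob, not called for aldosterone in MR580C cells, is listed there at 1.22 with corticosterone and 0.33 with aldosterone.

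In the MR cells labelled GRKO (MR-2B12) the shares were lower for the higher genes and higher for the lower genes than in parental MR cells. The corticosterone value was above the aldosterone value for 126 of 370 of the higher genes (34.1%), against 46.7% of all tested genes, and for 118 of 256 of the lower genes (46.1%), by the authors' deposited table. The medians of the higher genes there were 0.042 with corticosterone and 0.061 with aldosterone. Of the 15 genes with the largest positive differences, 15 had the larger corticosterone value in parental MR cells and 7 in the cells labelled GRKO. For Per1 the authors' deposited table gave 3.24 with corticosterone and 2.49 with aldosterone in parental MR cells, and 1.48 with corticosterone and 1.54 with aldosterone in cells labelled GRKO. For Hras the authors' deposited table gave 1.45 with corticosterone and 0.65 with aldosterone in parental MR cells, and 0.028 with corticosterone and 0.0081 with aldosterone in cells labelled GRKO. The parental MR cells and the MR cells labelled GRKO differ in the names MR-1G12 and MR-2B12 as well as in the GRKO label. Parental MR580C cells and the MR cells labelled GRKO differ in the receptor form as well as in that label. The differences between lines were not tested.

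**Figure D5:**
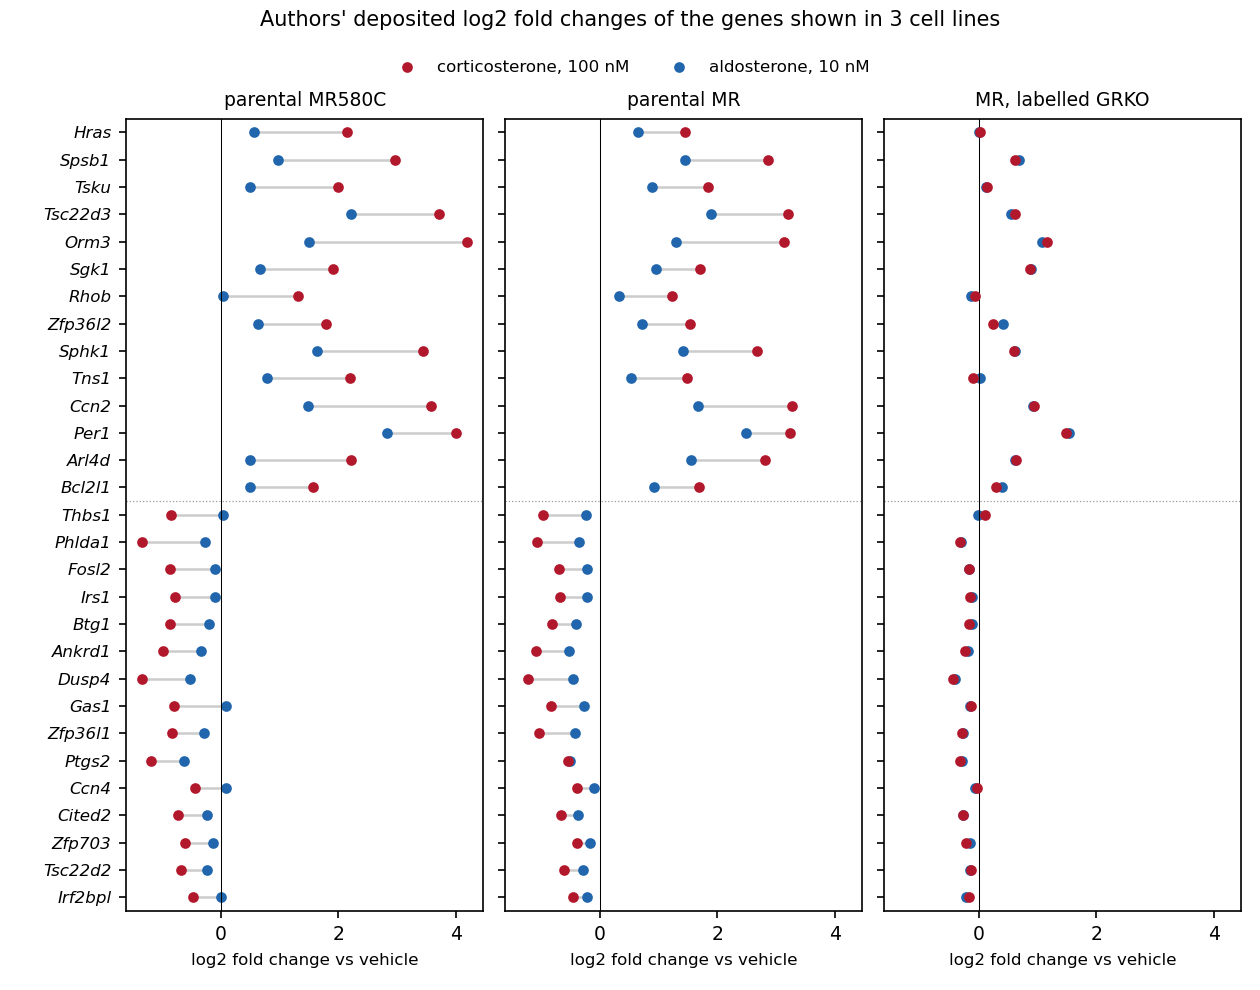
The authors' deposited log2 fold changes against vehicle (x axis) with corticosterone (red) and aldosterone (blue) for 14 of the 15 genes with the largest positive differences, above the dotted line and the 15 with the largest negative differences, below it, in parental MR580C cells, parental MR cells and MR cells labelled GRKO. Orm3 lies at 4.19 with corticosterone and 1.50 with aldosterone in MR580C cells. In the cells labelled GRKO Orm3 lies at 1.17 with corticosterone and 1.08 with aldosterone. The authors' deposited adjusted p-values support neither of these GRKO values, so they do not show that Orm3 was raised there. Ptgs2 in parental MR cells lies at -0.55 with corticosterone and -0.51 with aldosterone.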

How the data were processed

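Levels were taken as the authors deposited them: log2 values made by variance stabilization (vst), named in the file header, 1 line per gene, in 1 table for 9 libraries. HOMER counted the reads on exons (mm10), per the file headers. Per the submitters' processing notes, bcl2fastq 2.20, cutadapt 1.18, STAR 2.7.0f, Bowtie2 2.3.4.1 and HOMER 4.10.4 were used, with no role stated. Libraries were stranded total RNA libraries per the labels' protocols; whether counting used strand is not stated in those sources, which leaves genes with an overlapping partner or close copies uncertain. Log2 fold changes and adjusted p-values against vehicle were copied from the authors' deposited tables, whose headers name no test; their sign matched the levels for 1300 of 1300 genes called for corticosterone and 216 of 216 for aldosterone. The tables stand in more than 1 workbook in identical copies, and 1 copy was used.

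Whole reads cannot be recovered from these logs, so no count model, counting interval or other pseudocount was run. Genes constant within 1e-06 were left out. limma 3.58.1 in R 4.3.3 was fitted to the 9 libraries, 1 mean per group, with trend and without other covariates; tests are 2-sided, with Benjamini-Hochberg adjustment over 18787 genes and a threshold of 0.05. The ± is limma's standard error, and intervals are 95%. Named genes were the 15 largest differences each way among called genes whose hormone groups do not overlap (numbered Gm, Rik, LOC, Mir and Snor symbols left out), up to 3 called members per list by p, 7 fixed genes (Sgk1, Tsc22d3, Per1, Fkbp5, Klf9, Nr3c1 and Nr3c2) and 5 genes close between the hormones, 71 in all. A further 7 were chosen after their values were seen, and members without a place under that rule are given by their difference alone. Apart from Zfp36l1 and Zfp36l2, the genes under Other observations were also chosen after their values were seen. They lie outside the named genes, so the checks on named genes do not cover them. The members, lists and rule were chosen with earlier results of these data known. Chromatin samples of the series were not analysed here. A few genes that the rule for named genes takes in are not reported here.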

Additional observations from a re-analysis of the deposited data

How the results depend on the processing

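Alternatives were a stricter threshold, the libraries of the compared groups alone, a filter on levels (9350 genes), centred libraries, no variance trend, robust variance, the replicate block and leaving out each library. Between corticosterone and aldosterone, 630 genes became 390 at an adjusted p of 0.01; the other settings except leaving out a library gave 670 to 763. Corticosterone against vehicle went to 771 and aldosterone against vehicle to 103 at 0.01. Leaving out 1 library gave 380 to 789 genes between the hormones, 761 to 1746 for corticosterone against vehicle and 80 to 287 for aldosterone against vehicle; the cause was not tested. Replicate numbers are shared between groups. Deviations of same-numbered corticosterone and aldosterone libraries correlated at -0.20, 0.27 and 0.08 over 9350 genes. Those of corticosterone and vehicle correlated at 0.09, 0.16 and 0.04, and those of aldosterone and vehicle at -0.36, 0.08 and 0.43. So few and so scattered values cannot tell whether same-numbered libraries were handled together. With the replicate block, 757 genes were called between the hormones, 1523 for corticosterone and 281 for aldosterone. Of 1245 values of the 78 named genes under alternatives, 1187 kept their direction and side of the threshold, 58 no longer passed it, and no called value changed sign.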

Other observations

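Further genes outside the lists, chosen after their values were seen, also differed between the hormones. Zfp36, which like Zfp36l2 encodes a protein that promotes the decay of AU-rich mRNAs, was higher with corticosterone by 0.93 ± 0.037 (SE, adjusted p 2.4e-13), whereas Zfp36l1 of the same family was lower by -0.45. Zc3h12c, a relative of the endonuclease regnase 1, was higher by 0.58, Tead4, a DNA-binding partner of YAP, by 0.80, and Tgm2, the protein-crosslinking tissue transglutaminase, by 0.74. Arrdc2, an arrestin-related protein, was higher by 0.93, and Pim3, a survival kinase, by 0.67 with no call for aldosterone against vehicle (0.071, adjusted p 0.43). Jade2 and Foxred2 were raised strongly by both hormones: Jade2 stood 1.58 above vehicle with corticosterone and 0.84 with aldosterone, and Foxred2 1.58 with corticosterone and 1.06 with aldosterone.

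On the lower side, Pparg, the nuclear receptor of adipocyte differentiation, stood -0.64 from vehicle with corticosterone and -0.32 with aldosterone, and the hormones differed by -0.32 ± 0.042 (SE, adjusted p 2.6e-05). Bdnf, a neurotrophin, differed by -0.32, Plaur, the urokinase receptor, by -0.29, Ahr, the aryl hydrocarbon receptor, by -0.33 and Ptch1, the Hedgehog receptor, by -0.36. Aqp5, a water channel, was lower with corticosterone by -0.38 while aldosterone minus vehicle was 0.00039.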
